A study of Mus musculus with 6 samples.

Results

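The data concern 19 miRNA genes of the proximal part of the miRNA cluster in the imprinted Dlk1-Dio3 region on mouse chromosome 12, which lie on the plus strand around the protein-coding gene Rtl1. They were taken by position alone, as every gene named Mir in the GENCODE M21 annotation whose start falls in that stretch, and they are 19 of 1174 hairpins of that name. The sensorimotor cortex was the source of the small RNA, in male C57BL/6J mice at postnatal day 90 from this inbred wild-type strain, in 2 groups of 3 libraries. Mice of the SCI group had the whole spinal cord cut across in the neck at C5/6, and in control mice the cord was laid bare and left intact. Both were sampled 7 days after surgery, and each tissue sample was kept separate.

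In this region the maternal chromosome expresses the noncoding RNAs Meg3, Rtl1as, Rian and Mirg, which carry the miRNA hairpins, and the paternal chromosome expresses the protein-coding genes Dlk1, Rtl1 and Dio3. Several of the hairpins sit in Rtl1as, opposite the coding sequence of Rtl1, so their miRNAs are fully complementary to the Rtl1 mRNA and are known to direct its cleavage. The miRNAs of the region are abundant in the brain. Reads from an inbred strain cannot tell the parental alleles apart.

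By the annotation, Mir1906-1 lay in an exon of Meg3 in 5 of its 11 transcripts, and Mir770 in 1 of 11. Mir673, Mir493, Mir337, Mir540, Mir665, Mir3070a, Mir3070b and Mir882 had no annotated host gene. Mir431, Mir433, Mir127, Mir434, Mir432 and Mir136 lay within the coding sequence of Rtl1 on its opposite strand, and Mir341, Mir1188 and Mir370 in introns of Rian. In the build GRCm38, Mir127 spans chr12:109592846-109592915, Mir434 spans chr12:109594506-109594599 and Mir136 spans chr12:109595327-109595388, all on the plus strand.

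The arms that carried most of the reads are shown first, with the mature sequence of RefSeq on GRCm38 from 5′ to 3′ and the seed, bases 2 to 8, in capitals. All 6 come from hairpins opposite Rtl1, and no seed is shared among them.
miR-127-3p: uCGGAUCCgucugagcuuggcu
miR-434-3p: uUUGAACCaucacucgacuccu
miR-136-3p: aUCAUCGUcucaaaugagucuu
miR-136-5p: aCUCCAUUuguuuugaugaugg
miR-434-5p: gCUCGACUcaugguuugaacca
miR-127-5p: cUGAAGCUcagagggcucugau

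The next 6 are the member arms with the smallest unadjusted p between the groups, none of which had an adjusted p under 0.05.
miR-341-5p: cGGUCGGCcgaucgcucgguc
miR-433-5p: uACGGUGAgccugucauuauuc
miR-540-3p: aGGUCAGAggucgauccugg
miR-665-5p: aGGGGCCUcugccucuauccaggauu
miR-370-3p: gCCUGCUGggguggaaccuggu
miR-673-5p: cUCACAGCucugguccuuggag

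The reverse complement of all 10 mature sequences from Mir431, Mir433, Mir127, Mir434 and Mir136 was found without mismatch in the Rtl1 transcript, and that of no other member arm with reads was. Mir432, which had none, was not part of this count. The Rtl1 mRNA opposite the most abundant arm, miR-127-3p, occupies bases 2642 to 2663 of the 6358-base transcript (chr12:109592888-109592909, minus strand), and the stretch opposite miR-434-3p occupies bases 965 to 986 (chr12:109594565-109594586, minus strand). Both are shown to make the pairing visible.
Rtl1 opposite miR-127-3p: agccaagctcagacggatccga
Rtl1 opposite miR-434-3p: aggagtcgagtgatggttcaaa

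Of 27 member arms with at least 100 reads, the most abundant read began at the RefSeq start in 24 and was identical to the RefSeq sequence in 14. In both arms of miR-341 the most abundant read began 4 bases later than the RefSeq sequence, and in miR-370-5p it began 4 bases earlier. In miR-370-5p, 27.9% to 33.5% of the reads still began at the RefSeq start, and miR-341-5p had 130 reads in all. In these 3 arms the seed of the most abundant read in the cortex thus differed from the annotated one, as shown here.
miR-341-3p in RefSeq: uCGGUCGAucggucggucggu
miR-341-3p, most abundant read: uCGAUCGGucggucggucagu
miR-341-5p, most abundant read: cGGCCGAUcgcucggucuguc
miR-370-5p in RefSeq: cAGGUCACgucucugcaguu
miR-370-5p, most abundant read: aGACCAGGucacgucucugcag

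Libraries held 10585062 to 24480988 reads, of which 72.9% to 78.9% matched miRNA arms. On the first principal component of all tested arms, which held 36.3% of the variance, all control libraries lay below and all SCI libraries above 0, with control 1 farthest out at -9.49. Of 16 marker arms of 8 cell classes, neuronal miR-128-3p stood at 71480 to 92241 CPM (the count of an arm relative to the miRNA reads of its library, TMM-scaled). No marker was at 0, and the groups did not overlap in 5 of the 16, beside 20% of all arms. All 5 were lower in SCI: miR-128-3p, miR-143-3p and miR-145a-5p of mural cells, and miR-200a-3p and miR-429-3p of choroid plexus and other epithelium. miR-143-3p was at 4009 to 4719 CPM in control and 2977 to 3243 in SCI. miR-200a-3p was at 60.9, 26.6 and 28.4 CPM in control and 18.7 to 24.0 in SCI, so control 1 set the top of its range. Control 1 was also the highest library in myeloid miR-142-3p, with 298, 81.2 and 131 CPM in control and 105 to 133 in SCI. The same held for oligodendrocyte miR-219a-5p, with 758, 279 and 444 CPM in control and 240 to 306 in SCI. Another neuronal marker, miR-124-3p, was at 9665 to 16235 CPM in control and 14896 to 17522 CPM in SCI, higher on average in SCI with overlap. Here control 1 was the lowest library. The part of these differences in the values below was not tested, and in bulk tissue fewer cells of a type and less RNA per cell cannot be told apart.

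Reads were found for 17 of the 19 genes, in 33 arms, and 30 arms were abundant enough to be tested. Mir432 and Mir882 had 0 reads in every library, which allows up to 0.123 to 0.283 RPM (relative to all reads of the library), depending on the library. Mir1906-1 had 2 reads, both shared with its copy Mir1906-2, and miR-1188-3p had 9. No read of the other members was found in an annotated transcript outside the member genes and their hosts. Mir3070a and Mir3070b shared the reads of their joint arm.

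In control replicates 1 to 3, members held 2.85%, 3.22% and 3.63% of all reads, against 3.35%, 3.54% and 3.91% in the SCI replicates. Their summed level was 39307, 42391 and 46587 CPM in control and 42159, 46918 and 49866 CPM in SCI. The highest library was an SCI library and the lowest a control library, but the groups overlapped. The means were 42762 ± 3654 (SD, n = 3) and 46315 ± 3889, which is a log2 difference of 0.12. Without miR-127-3p, the most abundant arm, that difference was -0.0070.

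Hairpins opposite Rtl1 supplied 94.5% to 95.7% of the member reads in each library. Those with no annotated host supplied 2.13% to 2.81%, those in Rian introns 1.81% to 2.51% and those in Meg3 exons 0.339% to 0.559%. Mean levels of tested arms ran from 0.854 CPM for miR-493-3p to 25559 CPM for miR-127-3p, with 6 arms above 1000 CPM and 7 below 3 CPM.

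**Figure D1:**
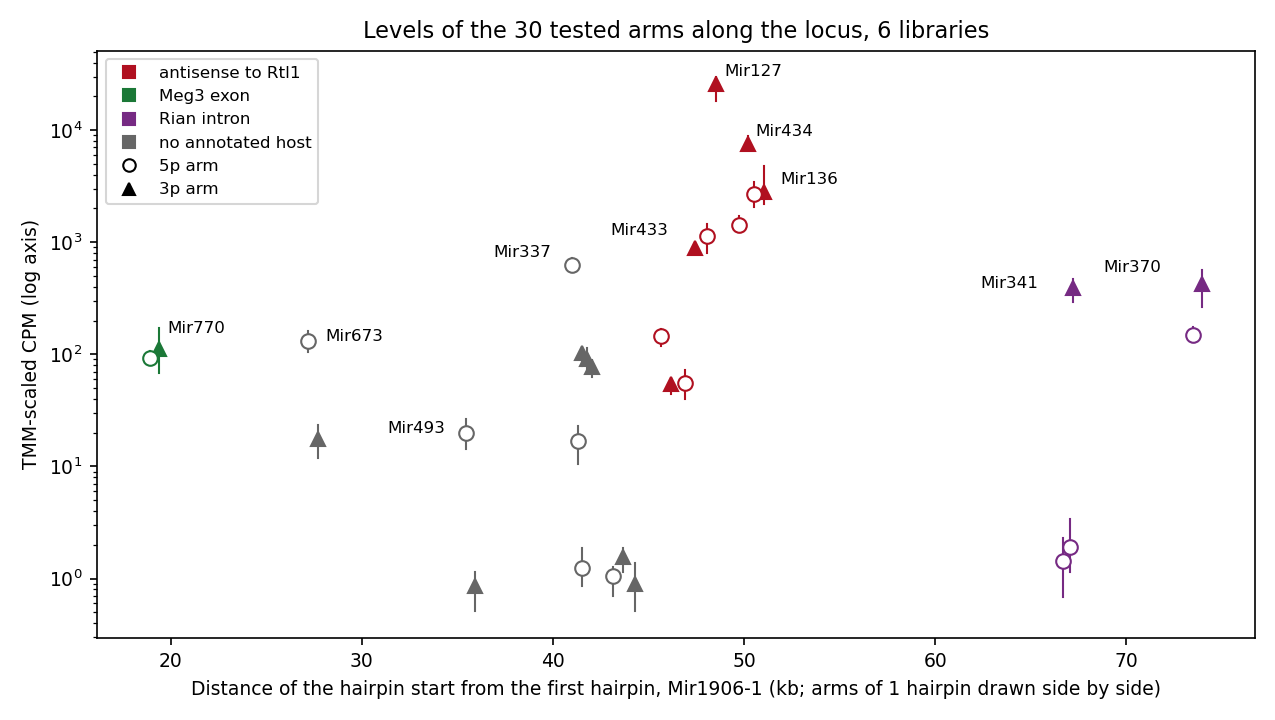
Mean level of each of the 30 tested arms (TMM-scaled CPM, log axis) against the distance of its hairpin from Mir1906-1 in kb, with bars from the lowest to the highest of 6 libraries. Arms antisense to Rtl1 hold the 6 highest means, up to 25559 CPM for miR-127-3p, and 7 arms lie below 3 CPM.

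The distal part of the cluster, 38 Mir genes within the next 100 kb, gave 31956 to 35454 CPM in control and 28767 to 33383 CPM in SCI. The proximal sum was 1.11, 1.33 and 1.46 times the distal sum in the control replicates, against 1.35, 1.63 and 1.49 times in the SCI replicates. These ratios overlapped between the groups.

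No member arm passed the test between SCI and control: with edgeR's quasi-likelihood test and Benjamini-Hochberg adjustment over all 690 arms tested, 0 of 30 had an adjusted p under 0.05, and 0 of 690 did overall (0%). At an unadjusted p under 0.05 there were 3 of 30 member arms, against 97 of 690 (14.1%). DESeq2, which gave no adjusted p to 174 arms of low count, called 0 of the 23 member arms that had one and 11 of 516 arms in all (2.13%). With limma-voom, 0 of 690 (0%) were called, with 93 (13.5%) at an unadjusted p under 0.05. The libraries of the groups did not overlap in 1 of 30 member arms, against 138 of 690 (20%). The unadjusted counts moved with single libraries: without SCI 3 they were 1 of 30 member arms and 48 of 713 in all, without SCI 1 they were 0 of 30 and 66 of 715, without control 3 they were 1 of 30 and 97 of 703, and without control 1 they were 5 of 30 and 103 of 705. Over all arms the adjusted count became 7 of 704 without SCI 2 and 2 of 715 without SCI 1, with 0 members among them.

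The estimates of the members pointed both ways. Of the 30, 13 had a higher and 17 a lower estimate in SCI, with a median log2 difference of -0.03 beside -0.02 over all 690 arms and -0.03 over 65 distal arms. The split turned to 19 higher and 11 lower with total count scaling, which moved the median of all arms by 0.12. Estimates ran from -0.83 to 0.48. Arms opposite Rtl1 split into 5 higher and 5 lower, those with no annotated host into 5 and 8, those in Rian introns into 2 and 3, and those of Mir770 in a Meg3 exon into 1 and 1.

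**Figure D2:**
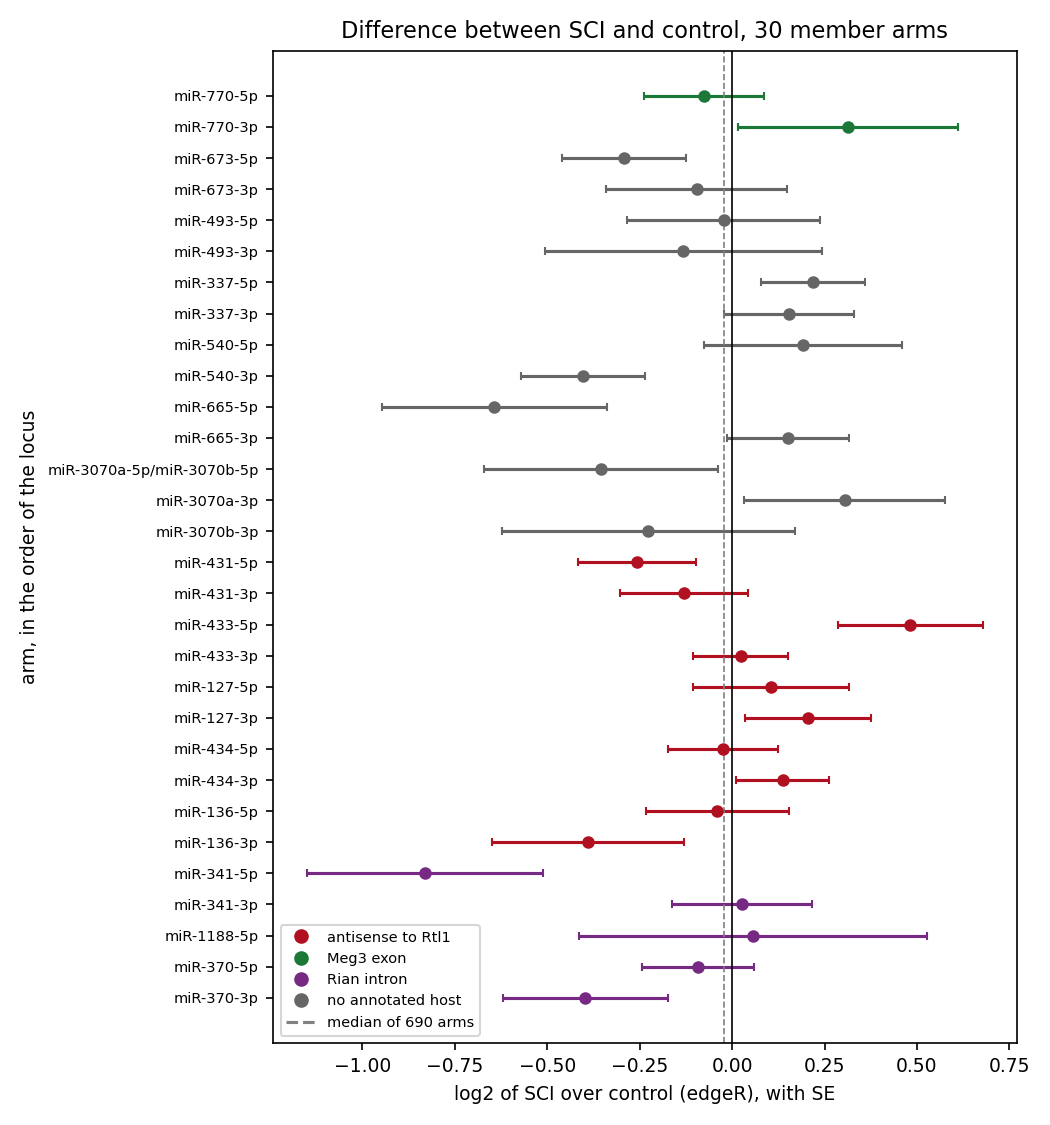
Estimated log2 difference of SCI over control with its SE for the 30 tested arms, in the order of their hairpins along the locus and coloured by host. The estimates lie on both sides of 0 and run from -0.83 for miR-341-5p to 0.48 for miR-433-5p.

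miR-127-3p, the most abundant member and rank 8 of all arms in the cortex, stood at 18084, 24960 and 28165 CPM in control and 23488, 29165 and 29489 CPM in SCI. Control 1 was the lowest library and 2 SCI libraries the highest, but SCI 1 lay below 2 control libraries. The log2 difference was 0.21 ± 0.17 (SE; edgeR adjusted p = 0.615). It held 46.0%, 58.9% and 60.5% of the member reads in control and 55.7%, 62.2% and 59.1% in SCI. Its partner miR-127-5p was at 1450, 805 and 1009 CPM in control and 1226, 992 and 1295 CPM in SCI. Here control 1 was the highest library, and the log2 difference was 0.11 ± 0.21 (edgeR adjusted p = 0.836).

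miR-434-3p came next, with 7925, 7008 and 6603 CPM in control and 7641, 7178 and 8853 CPM in SCI. SCI 3 was highest, and the other SCI libraries lay within the control range. The log2 difference was 0.14 ± 0.13 (edgeR adjusted p = 0.644). miR-434-5p was at 1704, 1274 and 1351 CPM in control and 1496, 1251 and 1508 CPM in SCI, within nearly the same range in both groups. Its log2 difference was -0.03 ± 0.15 (edgeR adjusted p = 0.949), a sign that changed with scaling.

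Among the abundant arms, miR-136-3p had the widest spread between control libraries relative to its mean. It was at 4786, 2182 and 2564 CPM in control and 2671, 2287 and 2322 CPM in SCI, so control 1 stood alone and the remaining 5 libraries lay close together. Its log2 difference of -0.39 ± 0.26 (edgeR adjusted p = 0.531) became 0.03 without control 1. The 5p arm of the same hairpin, miR-136-5p, went the other way in control 1, with 2052, 2658 and 3442 CPM in control and 2244, 3028 and 2655 CPM in SCI. Control 1 was here the lowest library, and the log2 difference was -0.04 ± 0.19 (edgeR adjusted p = 0.941).

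The largest estimate towards higher levels in SCI belonged to miR-433-5p, the minor arm of its hairpin. It stood at 56.1, 40.0 and 42.5 CPM in control and 72.7, 53.9 and 67.3 CPM in SCI. The groups overlapped only in that control 1 lay above SCI 2. The log2 difference was 0.48 ± 0.20 (unadjusted p = 0.0352, edgeR adjusted p = 0.293). Over the left-out libraries it ranged from 0.39 to 0.64. The major arm, miR-433-3p, was at 853 to 934 CPM in control and 792 to 987 CPM in SCI, with a log2 difference of 0.02 ± 0.13.

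miR-341-5p, a minor arm from a Rian intron with 130 reads in all, was the single member without overlap. Its levels were 2.28, 1.74 and 1.57 CPM in control and 0.689, 1.30 and 1.09 CPM in SCI, from 14 to 38 reads per control library and 8 to 23 per SCI library. All SCI libraries lay below all control libraries. The log2 difference was -0.83 ± 0.32 (unadjusted p = 0.0282, edgeR adjusted p = 0.282). The major arm miR-341-3p was at 291 to 470 CPM in control and 341 to 424 CPM in SCI, with a log2 difference of 0.03 ± 0.19.

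miR-540-3p stood at 86.8, 110.9 and 114.4 CPM in control and 73.4, 87.2 and 75.3 CPM in SCI. SCI 2 lay just above control 1, and the others kept apart. The log2 difference was -0.40 ± 0.17 (unadjusted p = 0.0395, edgeR adjusted p = 0.304). miR-540-5p, at 10.6 to 20.9 CPM in control and 14.9 to 22.8 CPM in SCI, had a log2 difference of 0.19 ± 0.27.

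Another 3 arms had the next smallest p, each above 0.05 unadjusted. miR-665-5p, with 115 reads in all, was at 1.86, 1.12 and 1.57 CPM in control and 0.861, 0.962 and 1.15 CPM in SCI, a log2 difference of -0.64 ± 0.30 (edgeR adjusted p = 0.382). SCI 3 lay above control 2 by a small margin. miR-370-3p was at 369, 568 and 499 CPM in control and 266, 372 and 452 CPM in SCI, a log2 difference of -0.40 ± 0.22 (edgeR adjusted p = 0.464), and the groups overlapped. miR-673-5p was at 120, 161 and 153 CPM in control and 121, 129 and 105 CPM in SCI, a log2 difference of -0.29 ± 0.17 (edgeR adjusted p = 0.469), again with overlap.

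**Figure D3:**
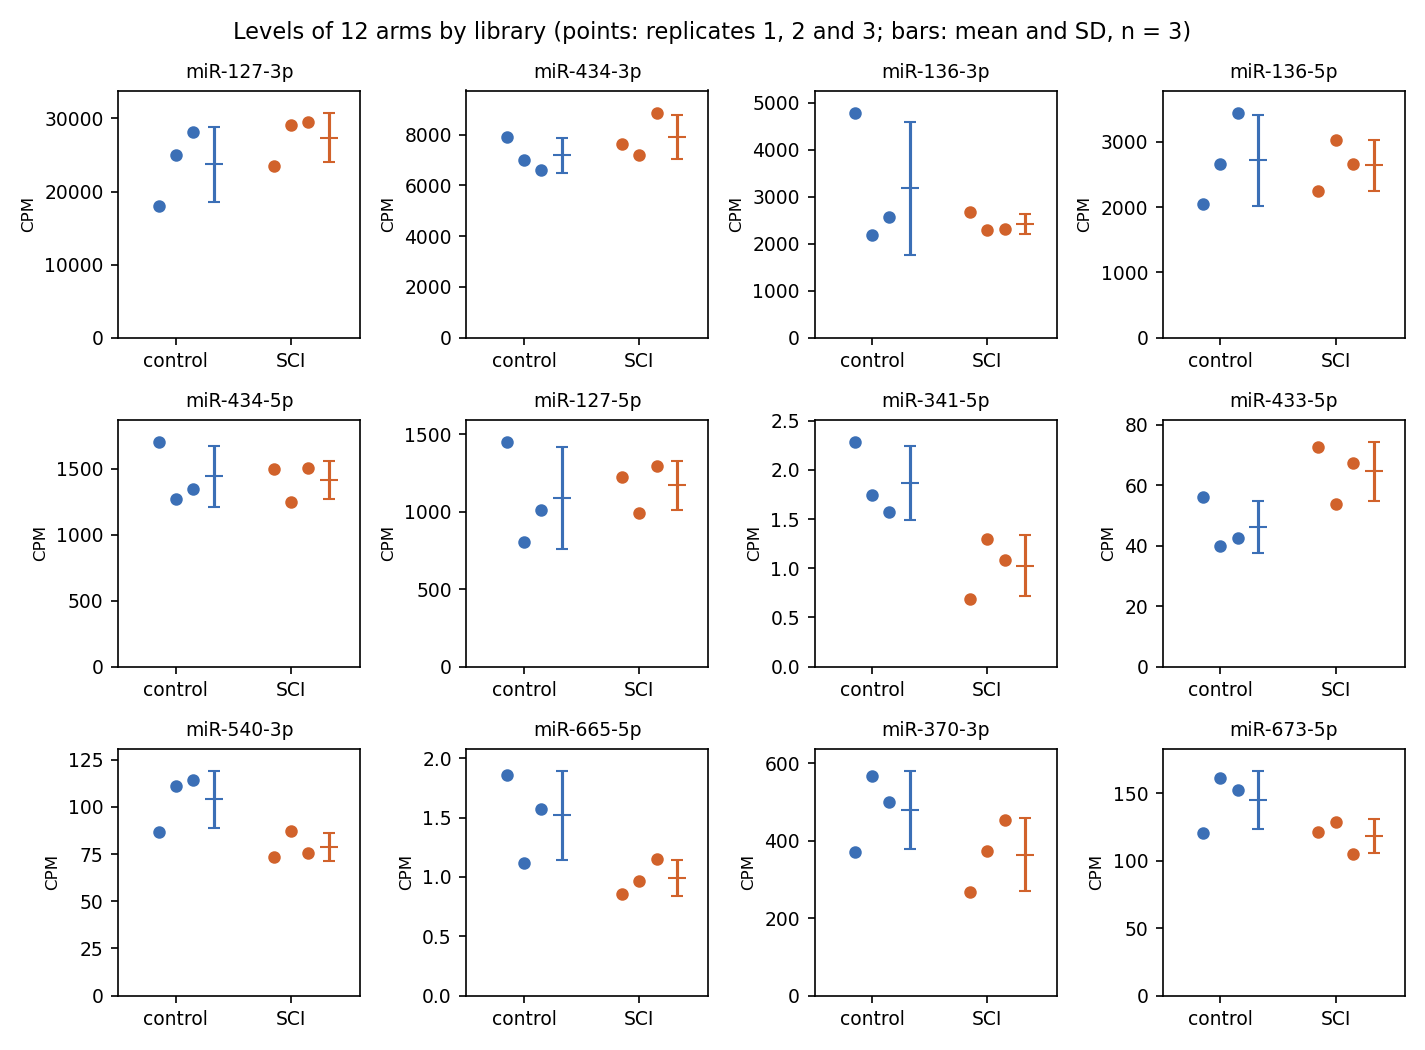
Level in TMM-scaled CPM of 12 arms in each library, control replicates in blue and SCI replicates in orange, with the mean and SD of n = 3 beside them. Control 1 stands above all other libraries in miR-136-3p at 4786 CPM, and miR-341-5p is the one arm without overlap.

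The remaining tested arms overlapped between the groups. Opposite Rtl1, miR-431-5p was at 148 to 169 CPM in control and 120 to 157 CPM in SCI, and miR-431-3p at 49.7 to 62.1 and 44.4 to 57.7 CPM. Among hairpins with no annotated host, miR-337-5p was at 571 to 593 CPM in control and 562 to 730 CPM in SCI. Its partner miR-337-3p was at 79.3 to 110 and 93.1 to 117 CPM. miR-665-3p was at 63.1 to 83.7 CPM in control and 78.3 to 88.4 CPM in SCI, and miR-673-3p at 18.2 ± 5.79 (SD, n = 3) and 16.9 ± 0.969 CPM. miR-493-5p was at 14.8 to 26.3 and 14.3 to 22.5 CPM.

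From the Meg3 exon, miR-770-3p was at 68.9 to 123 CPM in control and 79.1 to 172 CPM in SCI, with SCI 3 highest, and miR-770-5p at 91.9 to 98.6 and 80.1 to 107 CPM. From Rian introns, miR-370-5p was at 141 to 174 CPM in control and 133 to 154 CPM in SCI. Near the limit of detection were miR-1188-5p, miR-3070a-3p, miR-3070b-3p, miR-493-3p and the joint 5p arm of miR-3070a and miR-3070b, with means of 0.854 to 1.89 CPM. miR-3070a-3p and miR-3070b-3p were the one pair of tested members with the same seed, GGUGCUA, and differ outside it.
miR-3070a-3p: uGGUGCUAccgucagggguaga
miR-3070b-3p: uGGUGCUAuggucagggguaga

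In the distal cluster, 0 of 65 arms passed with edgeR. An unadjusted p under 0.05 was found in 16 of 65 (24.6%), against 14.1% of all 690 arms. The groups did not overlap in 19 of 65 (29.2%), against 20% of all 690. DESeq2 called 2 of the 60 that had an adjusted p: miR-3072-3p, at 13.8 to 21.5 CPM in control and 29.8 to 45.0 CPM in SCI, and miR-543-3p, at 636 to 799 CPM in control and 345 to 528 CPM in SCI. Their log2 differences were 1.02 ± 0.23 and -0.67 ± 0.18 (edgeR adjusted p = 0.156 and 0.249). The smallest edgeR adjusted p was that of miR-1197-3p, at 0.622 to 1.20 CPM in control and 2.72 to 5.77 CPM in SCI, with a log2 difference of 2.06 ± 0.36 (edgeR adjusted p = 0.116). miR-369-3p, the most abundant distal arm, was at 4443 to 5256 CPM in control and 3378 to 3975 CPM in SCI, with a log2 difference of -0.39 ± 0.12 (edgeR adjusted p = 0.256). miR-300-3p was at 2149 to 2185 CPM in control and 2353 to 3352 CPM in SCI, and miR-411-5p at 2133 to 2344 and 2086 to 2245 CPM, with log2 differences of 0.39 ± 0.14 and -0.04 ± 0.11 (edgeR adjusted p = 0.280 and 0.885). Whether the proximal and distal arms differed in how often they were called was not tested.

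The use of the arms, taken as the share of a hairpin's reads from its 3p side, differed widely among the members. Over all libraries the 3p arm held most reads in 10 of 15 hairpins with enough reads in both arms. Its share was 99.6% in miR-341, 98.4% in miR-665, 95.7% in miR-127, 94.1% in miR-433 and 84.0% in miR-434. It was 4.38% in miR-493, 11.7% in miR-673, 14.2% in miR-337 and 27.2% in miR-431, and neighbours such as miR-431 and miR-433 kept opposite arms.

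Between the groups, 0 of 15 member hairpins and 0 of 278 hairpins in all (0%) passed with limma on the log2 ratio of the arms. At an unadjusted p under 0.05 there were 3 of 15 members against 29 of 278 (10.4%), and the libraries did not overlap in 4 of 15 against 54 of 278 (19.4%). The log2 ratio of 3p over 5p in miR-665 was 5.28, 5.74 and 5.71 in control and 6.44, 6.30 and 6.22 in SCI. All SCI libraries were above all control libraries, by 0.74 ± 0.19 (unadjusted p = 0.00649, limma adjusted p = 0.301). This was the smallest p of any member.

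For miR-3070a the log2 ratio was 0.00, 0.40 and 0.27 in control and 0.63, 0.93 and 1.03 in SCI, without overlap, with a difference of 0.64 ± 0.20 (limma adjusted p = 0.349). Its 5p reads are shared with miR-3070b, whose own log2 ratio differed by 0.06 ± 0.28. The 3p reads of miR-341 were 203, 161 and 249 times the 5p reads in control and 569, 256 and 378 times in SCI, also without overlap, a log2 difference of 0.92 ± 0.32 (limma adjusted p = 0.349). In all 3 hairpins the 5p arm had at most 38 reads in any library, which limits the precision.

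The log2 ratio in miR-433 was 3.95, 4.54 and 4.33 in control and 3.66, 3.88 and 3.87 in SCI, lower in all SCI libraries, by -0.47 ± 0.21 (limma adjusted p = 0.502). miR-540 and miR-770 followed, with differences of -0.63 ± 0.38 and 0.37 ± 0.29 and overlapping groups. In miR-136 the 3p share was 70.0%, 45.1% and 42.7% in control and 54.3%, 43.0% and 46.7% in SCI. Control 1 was thus the library whose arms departed most, and the difference between groups was -0.29 ± 0.45 on the log2 scale.

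**Figure D4:**
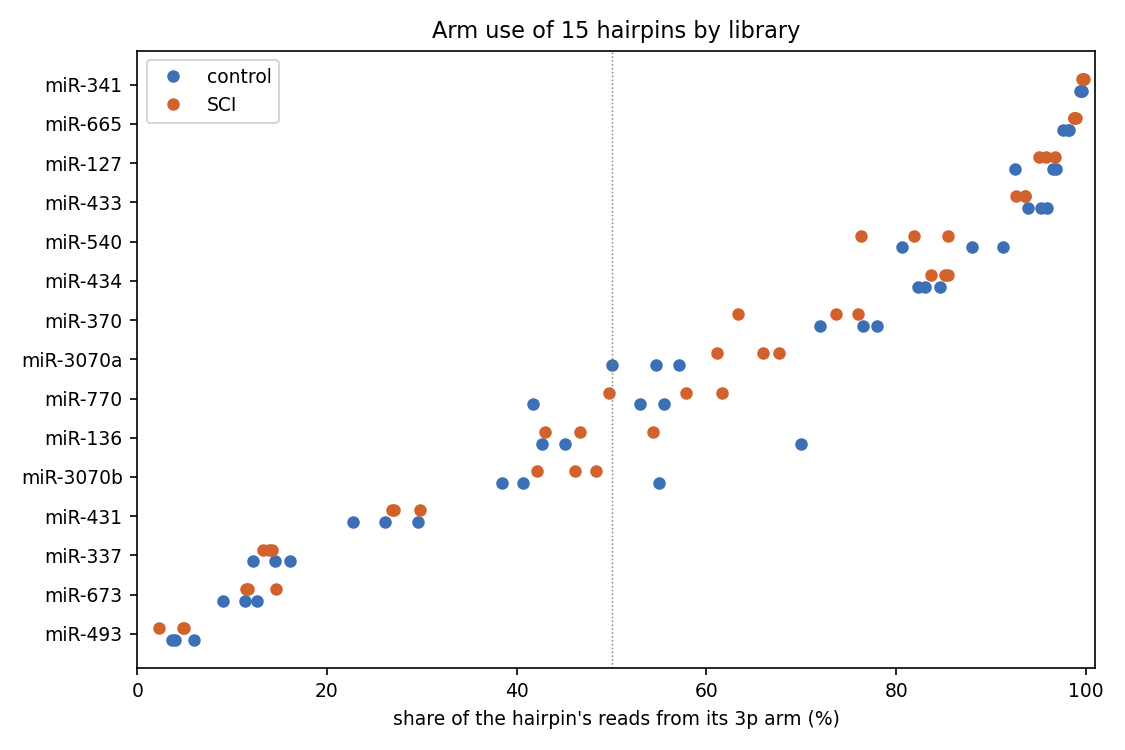
Share of the reads of each of 15 hairpins that came from its 3p arm, in percent, with 1 point per library (control blue, SCI orange). Hairpins spread from 4.38% in miR-493 to 99.6% in miR-341, and control 1 stands apart in miR-136 at 70.0%.

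The position of the 5′ end sets the seed of a miRNA, so reads were sorted by their first base in the 23 member arms with at least 1000 reads. In 6 of them, reads with a start other than that of the most abundant read made up over 30% of the reads on average. A second start shifts the seed, as the most abundant read of each start shows for 4 of these arms, all opposite Rtl1.
miR-127-5p, first start: cUGAAGCUcagagggcucugauu
miR-127-5p, second start: gAAGCUCAgagggcucugauu
miR-136-3p, first start: aUCAUCGUcucaaaugagucu
miR-136-3p, second start: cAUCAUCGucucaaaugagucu
miR-434-5p, first start: gCUCGACUcaugguuugaacc
miR-434-5p, second start: aGCUCGACucaugguuugaacc
miR-431-3p, first start: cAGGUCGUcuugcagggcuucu
miR-431-3p, second start: uGCAGGUCgucuugcagggcuuc

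The second start of miR-127-5p, 2 bases further in, held 40.5%, 53.8% and 47.5% of its reads in control and 44.1%, 44.3% and 41.4% in SCI. That of miR-136-3p, 1 base earlier, held 34.3%, 31.9% and 33.7% in control and 30.1%, 31.5% and 29.5% in SCI. The second start of miR-434-5p held 40.5% to 44.8% over the 6 libraries and that of miR-431-3p 28.4% to 37.6%. In each, both starts were present in every library. In miR-370-5p the second start, which is the RefSeq one, held 27.9% to 33.5%, and in miR-770-3p a start 1 base further in held 29.7% to 38.0%. Other starts were rare in miR-127-3p (2.31% to 2.67%) and miR-434-3p (2.76% to 3.65%), the most abundant arms.

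The libraries of the groups did not overlap in the share of other starts in 4 of 23 member arms, against 146 of 408 arms in all (35.8%). Of the 146, 130 were lower in SCI. The 4 member arms were miR-341-3p, at 28.3% to 33.4% in control and 24.7% to 26.7% in SCI, and miR-433-5p, miR-434-3p and miR-540-3p with shares of at most 4.67%. All of them but miR-540-3p were lower in SCI. In the share of the most abundant read the groups did not overlap in 6 of 23 member arms, against 82 of 408 (20.1%). For miR-127-3p this 20-base read, 2 bases shorter than the RefSeq sequence, held 41.6% to 47.4% of the reads in control and 48.8% to 52.5% in SCI. For miR-431-5p it was the other way, with 58.0% to 59.3% in control and 44.7% to 51.8% in SCI.

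Reads with 1 to 3 bases at the 3′ end that do not match the hairpin are called tails, and enzymes known as terminal nucleotidyl transferases add such bases to mature miRNAs. They were measured in 22 member arms, since in 1 the hairpin ends too close to the read. Tailed reads ranged from a mean of 2.10% in miR-434-3p to 44.0% in miR-770-3p, with a median of 15.7% beside 11.8% over 373 arms. In 5 of the 22 the groups did not overlap, all higher in SCI, against 80 of 373 arms (21.4%), of which 68 were higher in SCI. The members thus stood near the share of all arms.

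The 5 arms were miR-127-5p, miR-370-3p, miR-431-3p, miR-434-5p and miR-770-5p. In miR-770-5p tailed reads made up 28.9% to 34.4% in control and 37.2% to 40.8% in SCI, and tails of U alone 19.6% to 25.5% and 27.6% to 33.7%. For tails of U alone, the groups did not overlap in 2 of 22 member arms, against 48 of 373 arms (12.9%). The other was miR-341-3p, lower in SCI, at 7.32% to 10.5% in control and 6.77% to 7.28% in SCI. For tails of A alone they did not overlap in 4 of 22, all higher in SCI. Over all arms it was 81 of 373 (21.7%), of which 75 were higher in SCI. In miR-127-5p, tails of A alone made up 4.67% to 5.72% in control and 7.32% to 8.68% in SCI. An exact permutation test of 3 against 3 libraries cannot go below p = 0.1, so these are given as values without a test, and they were looked at after the levels were known.

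Single base changes within the reads were counted against the unchanged reads of the same start, at 487 positions of 26 member arms. The last 3 bases of each read were left out, where tails cannot be told from changes: at the last base of the most abundant read, miR-770-3p had G22U at 20.6% and miR-127-5p had U23A at 12.2%. A change was taken as a site where it made up at least 1% of the reads and at least 20 reads over all libraries. At the positions counted there were 4 such sites, and all were A read as G. There, none of the other 11 kinds of change passed both limits. The highest of them, C-to-U changes of 2.68% at 2 positions of miR-665-5p, rested on 3 reads each. A C-to-U change at position 20 of miR-540-5p made up 2.26% and rested on 16 reads. It passed the limit of 1% and was left out by the limit of 20 reads alone. Adenosine deaminases of the ADAR family, which are active in the brain, turn A into inosine in double-stranded RNA, and sequencing reads inosine as G. The changed reads were found in no annotated transcript. Whether they match other places of the genome was not tested.

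The sites are shown in the most abundant read, with the changed base in capitals and positions counted from 1 at the 5′ end of the read.
miR-337-3p: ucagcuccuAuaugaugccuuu
miR-337-3p, A10G: ucagcuccuGuaugaugccuuu
miR-540-5p: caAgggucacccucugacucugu
miR-540-5p, A3G: caGgggucacccucugacucugu
miR-540-5p, A9G: caagggucGcccucugacucugu
miR-770-5p: agcAccacgugucugggccacgu
miR-770-5p, A4G: agcGccacgugucugggccacgu

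A3G in miR-540-5p turned the seed AAGGGUC into AGGGGUC, and A4G in miR-770-5p turned GCACCAC into GCGCCAC. The other 2 sites lie outside the seed. At A3G in miR-540-5p, changed reads made up 15.2%, 12.5% and 14.6% in control and 13.5%, 15.1% and 11.4% in SCI, from 96 to 401 reads per library. The 95% Wilson intervals of all libraries overlapped, and that of control 2, the shallowest, ran from 7.30% to 20.6%. The group means were 14.1% ± 1.42 (SD, n = 3) and 13.3% ± 1.86 (exact permutation test, two-sided, p = 0.6, adjusted over the 4 sites p = 0.8). Here too the smallest p the test can give is 0.1, so it could not have passed 0.05 at any site.

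At A10G in miR-337-3p, changed reads made up 8.67%, 8.32% and 8.08% in control and 7.95%, 8.41% and 6.34% in SCI. SCI 3 was lowest and the groups overlapped (means 8.36% ± 0.299 and 7.57% ± 1.09, exact permutation p = 0.3, adjusted 0.6). At A9G in miR-540-5p the share was 1.18% to 2.61% in control and 2.28% to 3.36% in SCI (exact permutation p = 0.3, adjusted 0.6), from 1 to 9 changed reads per library. At A4G in miR-770-5p it was 1.13% to 1.39% in control and 0.842% to 1.49% in SCI (exact permutation p = 0.9, adjusted 0.9). The intervals cover counting error only, since reads are not independent molecules.

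**Figure D5:**
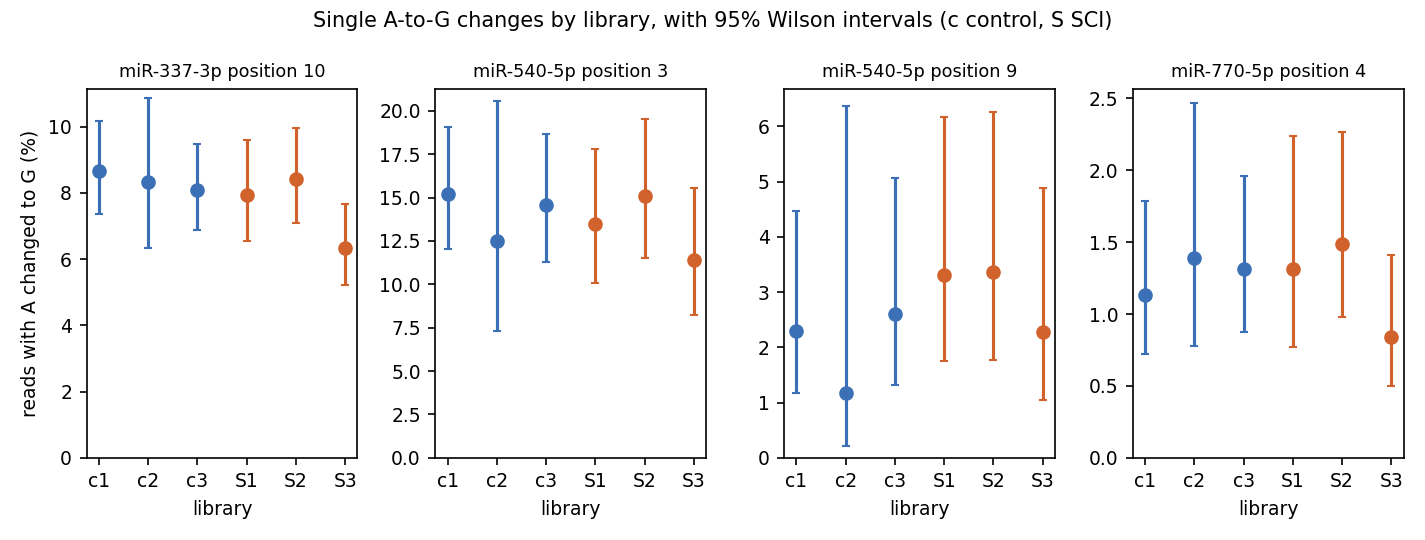
Share of reads in percent with A read as G at the 4 sites, by library (c1 to c3 control in blue, S1 to S3 SCI in orange), with 95% Wilson intervals. The intervals overlap between groups at every site, and the share is highest at position 3 of miR-540-5p, at 11.4% to 15.2%.

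Short reads of the long RNAs of the region were counted outside the hairpins. Only spliced transcripts were searched, so the Rian introns that hold member hairpins were not covered. Reads antisense to Rtl1 and outside the hairpins amounted to 3.92 to 5.02 RPM, with 53 to 116 reads per library, and reads of Rtl1 itself to 0 to 0.137 RPM. Meg3 gave 0.889 to 1.71 RPM and Mirg 7.37 to 10.1 RPM. Rian gave the most, with 302, 131 and 113 RPM in the control replicates against 131, 252 and 252 RPM in the SCI replicates. Control 1 was again the highest, and the groups overlapped. Fragments of this length do not measure the level of a long RNA.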

How the data were processed

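For each of 6 libraries the authors deposited the distinct reads and the raw count of each, per the file headers. RNA was extracted with the mirVana kit and libraries were made with HD adapters, per the labels' protocols. The submitters' processing notes name the build GRCm38. The trimmer and the read filters are not given in the sources used here.

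Here, reads of 18 to 26 nt that matched a GENCODE M21 hairpin, sense and without mismatch, were summed per arm, the arm being set by the read's midpoint. Arms were merged if their most abundant read was the same or if they shared at least 50% of the smaller arm's reads. Other reads of several arms, 0.1% to 0.153% of each library, were dropped. Counts were tested with edgeR 4.0.16 (quasi-likelihood, TMM, filterByExpr with a minimum count of 10, all 6 libraries, no covariate) in R 4.3.3. The SE is the size of the log2 difference divided by the square root of F. Arm ratios were tested with limma 3.58.1 on log2 values with a pseudocount of 0.5, for hairpins with a mean of at least 10 reads in both arms. DESeq2 1.42.0, limma-voom, other scalings and filters, the most abundant read alone, a replicate block and leaving out single libraries were alternatives. Python 3.11.15, pandas 2.3.3 and scipy 1.17.1 were used. The edgeR fit, the fit of the arm ratios and the scan for base changes were run on simulated data.

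All tested member arms are named, with full statistics for the 6 of highest level and the 6 of smallest p, and arm ratios for the 6 hairpins of smallest p. Of distal arms, the 3 of smallest p and the 3 of highest level are named. Members and lists were chosen with earlier results of these data known. p-values weigh the difference between the groups against the spread between these samples.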

Additional observations from a re-analysis of the deposited data

How the results depend on the processing

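The count of 0 member arms with an adjusted p under 0.05 held in all 16 alternatives (with DESeq2 over the 23 that had an adjusted p), as did the count of 0 among the arm ratios in all 11. The smallest adjusted p of a member named in full was 0.188, without a filter on low counts. The 3 member arms at an unadjusted p under 0.05 became 5 without that filter, and 0 to 5 when 1 library was left out: 5 if control 1 was dropped, 1 for control 3 or SCI 3 and 0 for SCI 1. Over all arms, the unadjusted count of 97 of 690 became 149 of 1421 without the filter and 48 of 713 without SCI 3, and the adjusted count of 0 became 30 without the filter and 0 to 7 when 1 library was left out. The distal count of 0 became 2 with DESeq2 and 7 without the filter, and 0 to 1 when 1 library was left out, with miR-1197-3p called if SCI 2 was dropped. The summed member level, a log2 difference of 0.12, was -0.0070 without the most abundant arm, miR-127-3p, and 0.058 to 0.18 with 1 library left out.

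Of 190 alternative values for the 12 arms, 13 changed sign, and the cause was not tested. With 1 library left out, miR-136-3p ranged from -0.61 to 0.028, miR-136-5p from -0.21 to 0.16, miR-434-5p from -0.11 to 0.11 and miR-127-5p from -0.076 to 0.36. miR-136-5p was 0.069 with total count scaling, 0.060 for the most abundant read and 0.0057 for reads of 20 to 24 nt. miR-434-5p was 0.094 with total count scaling, 0.0012 with upper quartile scaling, 0.0091 with at least 100 reads and 0.0043 for the most abundant read. The 63 alternative values of the arm ratios kept their sign.

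With the replicate number as a block, 4 of 30 member arms had an unadjusted p under 0.05, against 103 of 690 arms in all. The count at an adjusted p under 0.05 was 0 in both. The correlations of same-numbered libraries, in deviations from the group means, were 0.20, -0.06 and -0.07. Those of control 2 with SCI 3 and of control 3 with SCI 2 were 0.19 and 0.22. The remaining pairs across groups lay between -0.14 and -0.10. No label pairs the samples, and 3 libraries per group cannot decide whether they were paired. Whether some libraries shared a batch was not tested. The count of 4 A-to-G sites held at a limit of 0.5%, for the most abundant reads alone and with 1 library left out, alternatives chosen after the data were seen. Depth limits the 7 arms below 3 CPM, with as few as 6 reads in a library.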
